A study of Mus musculus with 12 samples.

Results

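The data describe 7 genes of antigen presentation by major histocompatibility complex (MHC) class II molecules in the proximal ileal epithelium of mice given the dioxin TCDD, a ligand of the aryl hydrocarbon receptor (AhR). The genes were H2-Aa, H2-Ab1, H2-Eb1, Cd74, Ciita, H2-DMa and H2-DMb1. They were chosen by name, with no threshold on a measured value, but with earlier results of these data known. They are 7 of 46078 genes in the deposited count files, and all 7 were among the 15823 genes that passed the filter on low counts. All 12 libraries came from male C57BL/6 animals dosed by oral gavage at 4-day intervals, 7 times in all, from 28 days of age. Tissue was taken 28 days after the first dose, at 56 days of age. The vehicle group received sesame oil alone, and the other groups received 3, 10 or 30 µg/kg TCDD in sesame oil. Each group holds 3 libraries, which the study treats as separate mice. The RNA came from epithelial scrapings, so cells that lie within or just beneath the epithelium can contribute to every value. In such bulk samples, fewer cells of a type and less RNA per cell cannot be told apart.

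MHC class II molecules display peptides from internalised proteins to CD4+ T cells. They are made mainly by dendritic cells, macrophages and B cells, and the small intestinal epithelium is a known site of class II expression outside those cells. H2-Aa and H2-Ab1 encode the alpha and beta chains of the I-A molecule, and H2-Eb1 encodes the beta chain of I-E, whose alpha chain gene is not functional in C57BL/6 mice. Cd74, the invariant chain, chaperones class II molecules to the endosome. H2-DMa and H2-DMb1 encode chains of the DM molecule, which exchanges the invariant chain fragment for peptide. Ciita is the transactivator of these genes. It binds no DNA itself but joins the RFX, CREB and NF-Y factors on conserved X and Y boxes of their promoters.

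The promoters of 2 chain genes are shown because these boxes are what the class II genes share in sequence. Each run is the 250 bases before the RefSeq start on build GRCm38.p6, written 5′ to 3′ on the strand of the gene. H2-Aa lies on the minus strand, and its window is chr17:34287824-34288073. H2-Eb1 lies on the plus strand, and its window is chr17:34305617-34305866. Capitals mark matches on either strand to the Y box letters ATTGG, to the longer form TGATTGG that contains them, and to the X box letters AGCAAC.
H2-Aa: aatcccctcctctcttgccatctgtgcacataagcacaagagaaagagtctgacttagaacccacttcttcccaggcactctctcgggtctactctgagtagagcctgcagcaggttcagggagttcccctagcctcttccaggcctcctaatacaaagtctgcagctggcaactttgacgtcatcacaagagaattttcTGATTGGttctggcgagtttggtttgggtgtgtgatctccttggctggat
H2-Eb1: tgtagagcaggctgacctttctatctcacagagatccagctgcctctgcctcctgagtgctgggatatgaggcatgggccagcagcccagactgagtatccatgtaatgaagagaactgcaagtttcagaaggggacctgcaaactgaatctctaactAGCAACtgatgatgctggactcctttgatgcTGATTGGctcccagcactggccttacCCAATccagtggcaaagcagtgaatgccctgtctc

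TGATTGG began 50 bases before the start in H2-Aa, 61 before it in H2-Eb1 and 63 before it in H2-DMb1. The longer form was picked after the sequences had been seen, and 7.23% of 32851 mouse promoter windows of the same length hold it on either strand. ATTGG alone stood in 33.8% of them. AGCAAC, present in 12.2% of windows, was found 92 bases before the start of H2-Eb1 and in no other class II window searched. H2-Eb1 and H2-DMb1 also shared the 13-base run AACTGATGATGCT, which began 89 bases before the start of the former and 92 bases before that of the latter and which occurred in 2 of all the windows. Of the H2-DMb1 window, 119 bases lie in exons of that gene in GENCODE M21, so its whole sequence is not shown. Of the H2-Eb1 window printed above, 88 bases lie in exons of Gm20513, a non-coding gene antisense to H2-Eb1. H2-DMa has 2 RefSeq starts, and only the second window held ATTGG, at 198 bases before the start. The core of the dioxin response element, GCGTG, stood in 28.2% of windows and in none of the windows of H2-Aa, H2-Eb1, H2-DMa and H2-DMb1. A match is a run of letters and not a measured binding site, and its absence says only that these letters are missing from this window. H2-Ab1, Cd74 and Ciita have no entry in the promoter table.

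The genes sit at 3 places in the genome (GENCODE M21 on GRCm38). The MHC on chromosome 17 holds H2-DMa (ENSMUSG00000037649, chr17:34119541-34139101), H2-DMb1 (ENSMUSG00000079547, chr17:34153072-34160230) and H2-Ab1 (ENSMUSG00000073421, chr17:34257689-34269419). H2-Aa (ENSMUSG00000036594, chr17:34282744-34287823) and H2-Eb1 (ENSMUSG00000060586, chr17:34305867-34316674) follow in the same region. Ciita (ENSMUSG00000022504) lies at chr16:10480059-10528418 and Cd74 (ENSMUSG00000024610) at chr18:60803848-60812652. The strand setting of the counting was not given in the sources used here, so reads from 329 exonic bases shared by Ciita and the antisense gene Dexi, and from 360 shared by H2-DMa and Brd2, cannot be assigned with certainty. Reads of H2-DMb1 may likewise be divided with its close copy H2-DMb2.

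The libraries held 11695887 to 22180274 gene counts, and 3 counts, the floor used for a gene not detected, equal 0.135 to 0.257 CPM, the count scaled to library size by edgeR. Every class II gene was far above that floor, with 324 to 39220 counts in each library. The epithelial marker Epcam was at 1041 to 1312 CPM in all 12 libraries. The bile acid binding protein gene Fabp6, a marker of ileal enterocytes, had 1, 2 and 1 counts in vehicle, 508, 556 and 390 at 3 µg/kg, 2, 2 and 5 at 10 µg/kg, with 0, 2 and 2 at 30 µg/kg. The bile acid transporter gene Slc10a2 had 8, 48 and 51 counts in vehicle, 218, 156 and 93 at 3 µg/kg, 30, 20 and 16 at 10 µg/kg, with 17, 11 and 18 at 30 µg/kg. The 3 µg/kg libraries therefore stand apart from all others in these ileal markers, and the fits of the other doses were repeated without them. Libraries also differed in circadian genes. The clock gene Dbp had 19, 2605 and 1645 counts in vehicle, 1205, 58 and 28 at 3 µg/kg, 894, 16 and 16 at 10 µg/kg, with 904, 326 and 50 at 30 µg/kg, so vehicle replicate 1, replicates 2 and 3 of the lower doses and replicate 3 of the highest dose were low. As a check of dosing, Cyp1a1, an AhR target, averaged 23.1 ± 4.28 CPM in vehicle and 77.5 ± 60.1, 1075 ± 235 and 2982 ± 334 CPM at 3, 10 and 30 µg/kg (SD, n = 3). The 3 µg/kg libraries were uneven, with 1873, 1178 and 378 Cyp1a1 counts against 402, 594 and 361 in vehicle. In replicate 3 of that dose the summed level of 5 AhR targets, 89.1 CPM, lay within the vehicle range of 77.9 to 91.3 CPM. The check therefore shows no AhR response in that library.

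Cd74, the invariant chain gene, took 0.127 to 0.177% of all counts. It stood at 1320, 1816 and 1313 CPM in the 3 vehicle libraries, 1563, 1438 and 1462 at 3 µg/kg, 1338, 1331 and 1361 at 10 µg/kg, with 1453, 1627 and 1607 at 30 µg/kg. The vehicle libraries held both the highest and the lowest value of all 12, so every treated library lay within the vehicle range. The group means were 1483 ± 288, 1488 ± 66.1, 1343 ± 15.9 and 1563 ± 95.4 CPM in the order of dose (SD, n = 3).

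H2-Ab1, the I-A beta chain, was highest and lowest in the same libraries as Cd74. Its values were 428, 575 and 412 CPM in vehicle, 512, 469 and 483 at 3 µg/kg, 438, 442 and 441 at 10 µg/kg, with 434, 520 and 524 at 30 µg/kg. Here too vehicle contained the extremes, and no treated library lay outside the vehicle range. The means were 472 ± 90.0, 488 ± 21.6, 440 ± 2.07 and 493 ± 51.0 CPM.

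H2-Aa, the partner alpha chain, had 334, 484 and 323 CPM in vehicle, 516, 461 and 514 at 3 µg/kg, 419, 436 and 431 at 10 µg/kg, with 361, 441 and 454 at 30 µg/kg. Only vehicle replicate 2 reached the level of the treated libraries, and it lay within the 3 µg/kg range. The means were 380 ± 89.7, 497 ± 31.5, 429 ± 8.82 and 419 ± 50.1 CPM.

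H2-Eb1, the I-E beta chain, had 155, 171 and 126 CPM in vehicle, 196, 202 and 194 at 3 µg/kg, 156, 169 and 199 at 10 µg/kg, with 127, 136 and 195 at 30 µg/kg. All 3 libraries of 3 µg/kg were above every vehicle library, whereas 10 and 30 µg/kg overlapped vehicle. The means were 151 ± 22.7, 197 ± 4.46, 175 ± 22.2 and 153 ± 36.7 CPM.

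The DM genes edit the peptides bound to class II molecules. H2-DMa had 40.0, 39.7 and 30.0 CPM in vehicle, 43.6, 51.5 and 54.7 at 3 µg/kg, 40.4, 56.3 and 53.7 at 10 µg/kg, with 36.5, 35.6 and 51.7 at 30 µg/kg. Its libraries of the lower doses lay above all vehicle libraries, although the lowest of 10 µg/kg was within 1 CPM of the highest vehicle one. The means were 36.5 ± 5.71, 49.9 ± 5.68, 50.1 ± 8.53 and 41.3 ± 9.05 CPM. H2-DMb1 had 32.0, 29.6 and 25.2 CPM in vehicle, 32.7, 34.9 and 37.1 at 3 µg/kg, 28.7, 33.0 and 39.0 at 10 µg/kg, with 29.4, 28.8 and 45.6 at 30 µg/kg. The 3 µg/kg libraries were again above vehicle, and the spread was widest at 30 µg/kg, with means of 28.9 ± 3.48, 34.9 ± 2.21, 33.6 ± 5.20 and 34.6 ± 9.50 CPM. Both DM genes also differed with Dbp. In the libraries low in Dbp, H2-DMa had 40.0 to 56.3 CPM and H2-DMb1 32.0 to 45.6, against 30.0 to 43.6 and 25.2 to 32.7 in the others. The highest 30 µg/kg value of each came from replicate 3, the library of that dose low in Dbp. These ranges were seen after the fact, and the part of the clock in them was not tested.

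Ciita, the transactivator, was the one gene with its lowest values at the highest dose. It had 39.8, 54.6 and 36.3 CPM in vehicle, 40.2, 46.3 and 55.3 at 3 µg/kg, 33.1, 47.9 and 33.3 at 10 µg/kg, with 27.7, 33.1 and 32.2 at 30 µg/kg. All 3 libraries of 30 µg/kg were below every vehicle library, while those of 3 and 10 µg/kg overlapped vehicle. The means were 43.6 ± 9.69, 47.2 ± 7.63, 38.1 ± 8.51 and 31.0 ± 2.89 CPM.

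**Figure D1:**
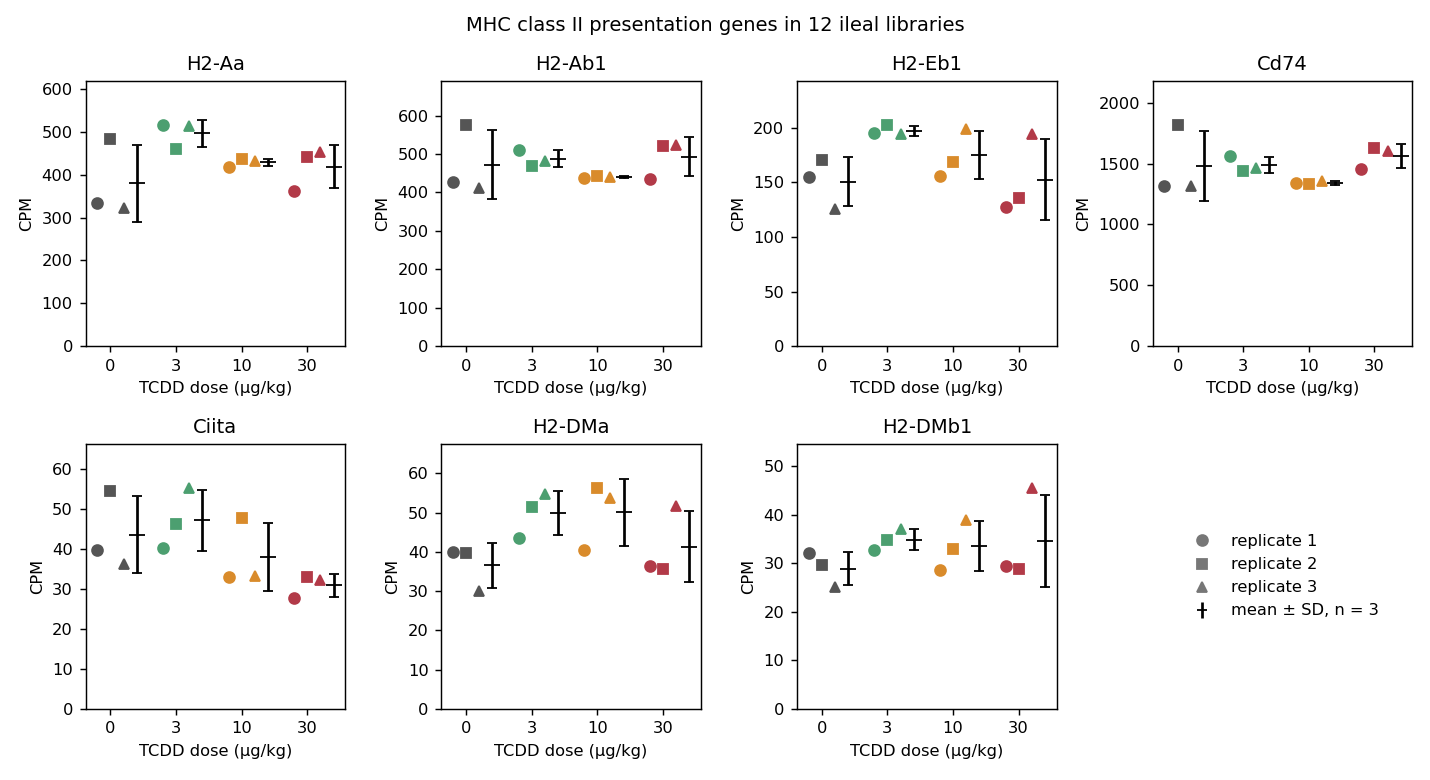
CPM of each class II presentation gene (y axis, linear and from 0) in the 12 libraries, by TCDD dose in µg/kg (x axis, 0 is vehicle); symbols mark the replicate, and black bars give the mean ± SD of 3 libraries. For Cd74 and H2-Ab1 the vehicle libraries span all treated ones, and for Ciita the 30 µg/kg libraries (27.7 to 33.1 CPM) lie below vehicle (36.3 to 54.6 CPM).

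Levels of different genes can be ranked only per length. Per kilobase of annotated exon, the mean CPM over 12 libraries was 875 for Cd74, 184 for H2-Ab1, 114 for H2-Aa, 86.9 for H2-Eb1, 19.6 for H2-DMb1, 12.9 for H2-DMa and 4.19 for Ciita. Per kilobase of the principal mRNA the same order held for Cd74, H2-Ab1, H2-Aa and H2-Eb1, but H2-DMa, at 26.8, came before H2-DMb1, at 23.5. Cd74 in vehicle ranked at the 99.7th percentile of tested genes per kilobase of exon, and Ciita at the 60.2nd. The highest of the 12 libraries was 1.38 times the lowest for Cd74, 1.40 times for H2-Ab1 and 2.00 times for Ciita, the widest of the 7. Vehicle replicate 3 held the lowest value of 6 genes, all but Ciita.

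The comparisons of each dose with vehicle asked whether TCDD altered these genes. A call required a Benjamini-Hochberg adjusted p under 0.05 in edgeR's quasi-likelihood test over 15823 genes together with a difference of 1.5-fold or more. At 3 µg/kg, 0 of 7 class II genes were called, beside 0.228% of all tested genes. The middle dose also gave 0 of 7, beside 0.613%, as did the highest dose, beside 3.97%. DESeq2 and limma-voom also called 0 of 7 at each dose. Before adjustment, p was under 0.05 for 3 of 7 genes at the lowest dose, for 1 at the middle dose and for 1 at the highest, beside 11.4, 15.9 and 21.6% of all genes. These counts rest on single libraries. The 3 became 0 without vehicle replicate 3 or without 3 µg/kg replicate 3, and 1 without 3 µg/kg replicate 2. Replicate 3 of 3 µg/kg is the library whose summed AhR targets lay within the vehicle range. The 1 at the middle dose became 0 without vehicle replicate 3 or without replicate 2 or 3 of that dose, and 2 without vehicle replicate 2. The 1 at the highest dose became 0 without replicate 1 of that dose and 3 without vehicle replicate 2. A p that misses the threshold does not show that levels were equal. Over the 21 comparisons of a gene with vehicle, the 95% intervals reached from 0.539-fold to 1.78-fold, and 12 of them lay wholly within a 1.5-fold change in either direction.

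All 7 genes had a positive estimate at 3 µg/kg, with a median log2 change of 0.27 against 0.0017 over all tested genes. H2-DMa had the largest, at 0.45 (SE 0.17, adjusted p = 0.360), followed by H2-Eb1 at 0.39 (SE 0.16, adjusted p = 0.392) and H2-Aa at 0.39 (SE 0.14, adjusted p = 0.349). These 3 genes had an unadjusted p under 0.05 and an interval above 0, from 1.05 to 1.77-fold for H2-DMa, 1.03 to 1.66-fold for H2-Eb1 and 1.05 to 1.62-fold for H2-Aa. The estimate was 0.27 for H2-DMb1, 0.12 for Ciita, 0.05 for H2-Ab1 and 0.005 for Cd74. The sign reversed in 12 of 23 alternative fits for Cd74 and in 2 of 23 each for H2-Ab1 and Ciita. A positive sign for all 7 genes therefore depends on the processing. The estimates also share the same vehicle libraries, of which replicate 3 held the lowest value of 6 genes, so they are not 7 separate observations. Libraries of 3 µg/kg lay wholly above vehicle for 3 of 7 genes (H2-Eb1, H2-DMa and H2-DMb1), beside 8.58% of all genes. Without vehicle replicate 3 the estimates fell to 0.31 for H2-DMa, 0.26 for H2-Eb1 and 0.26 for H2-Aa. The estimates at 3 µg/kg rest on the 3 libraries that stand apart in Fabp6 and Slc10a2. Fabp6 was called in that comparison with a log2 difference of 8.68 (adjusted p = 3.91e-07), and the part of this difference in the class II values was not tested.

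At 10 µg/kg H2-DMa had a log2 change of 0.46 (SE 0.17, adjusted p = 0.235, 1.06 to 1.78-fold), the only interval of that dose that excluded 0. With the circadian clock score of each library as a covariate it was 0.29. The other estimates were 0.22 for H2-DMb1, 0.22 for H2-Eb1, 0.17 for H2-Aa, -0.10 for H2-Ab1, -0.14 for Cd74 and -0.20 for Ciita. H2-DMa was also the one gene of 7 whose 10 µg/kg libraries all lay above vehicle, beside 11.9% of all genes. With the 3 µg/kg group left out of the fit it had a log2 change of 0.47, and again 0 of 7 genes were called.

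At 30 µg/kg Ciita had a log2 change of -0.49 (SE 0.18, unadjusted p = 0.0184, adjusted p = 0.137), an interval from 0.539 to 0.934-fold. With the 3 µg/kg group left out the change was -0.48 (adjusted p = 0.138), and 0 of 7 genes were called. It was the 1 gene of 7 whose libraries all lay below vehicle, beside 12.5% of all genes. Without vehicle replicate 2, the highest vehicle library, the change was -0.30. The adjusted p of Ciita at this dose ran from 0.0766 to 0.425 over the alternatives. The genes that Ciita activates had positive estimates at this dose, each with an interval that included 0. Their estimates were 0.26 for H2-DMb1, 0.18 for H2-DMa, 0.14 for H2-Aa, 0.08 for Cd74, 0.06 for H2-Ab1 and 0.02 for H2-Eb1. For H2-DMa, Cd74, H2-Ab1 and H2-Eb1 the sign reversed in some alternatives, so a difference in sign from Ciita is not settled.

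**Figure D2:**
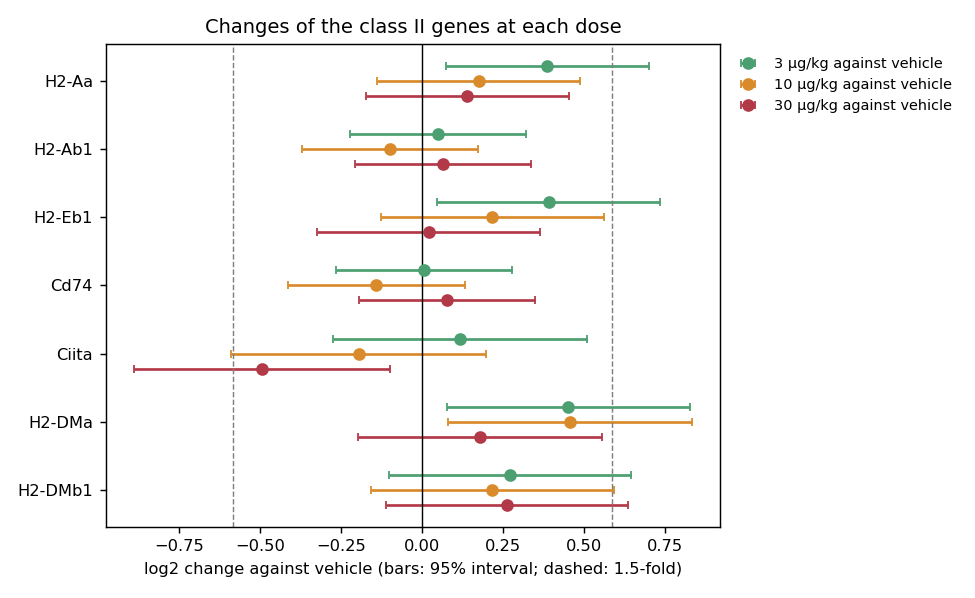
Log2 change of each class II gene against vehicle (x axis) at 3, 10 and 30 µg/kg TCDD, with points for the estimate and bars for the 95% interval; the dashed lines mark 1.5-fold. Of the 21 intervals 5 exclude 0, namely H2-Aa, H2-Eb1 and H2-DMa at 3 µg/kg, H2-DMa at 10 µg/kg and Ciita at 30 µg/kg, and no gene was called.

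A slope over the dose rank, from 0 for vehicle to 3 for 30 µg/kg, asked whether the genes moved steadily with dose. Again 0 of 7 were called in edgeR, DESeq2 and limma-voom, beside 3.29% of all genes in edgeR, and 1 of 7 had an unadjusted p under 0.05, beside 19.7%. That gene was Ciita, with a log2 change over the whole rank of -0.54 (SE 0.19, unadjusted p = 0.0113, adjusted p = 0.120). The trends of the others lay between -0.05 for H2-Eb1 and 0.22 for H2-DMb1. The trend of H2-Eb1 turned to 0.08 when the 3 µg/kg group was left out. When any difference between groups was tested at once, 0 of 7 were called by the same 3 tools, beside 6.78% of all genes in edgeR. The unadjusted p was under 0.05 for Ciita alone, and the adjusted p values ran from 0.159 for Ciita to 0.751 for H2-Ab1.

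Between neighbouring doses the class II genes were not called either. From 3 to 10 µg/kg 0 of 7 were called and 0 had an unadjusted p under 0.05, beside 0.158 and 3.30% of all genes. Estimates were negative for 6 of 7, from -0.31 for Ciita to -0.06 for H2-DMb1. Those of H2-Aa, H2-Ab1 and Cd74 came with 10 µg/kg libraries wholly below the 3 µg/kg ones, 3 of 7 genes beside 4.25% of all. This step rests on the 3 µg/kg libraries, which stand apart in Fabp6 and Slc10a2. Fabp6 was called in it (log2 change -7.21, adjusted p = 1.11e-06), and the part of this difference in the class II values was not tested. From 10 to 30 µg/kg 0 of 7 were called, beside 2.77%, and 0 had an unadjusted p under 0.05, beside 21% of all genes. The estimate was highest for Cd74 at 0.22 and lowest for Ciita at -0.30, and the Cd74 libraries at 30 µg/kg lay wholly above those at 10 µg/kg, 1 of 7 genes beside 14.7% of all. Markers of presenting cells moved in the same step, in both directions. The macrophage markers Csf1r (log2 change 0.84, adjusted p = 0.0110) and C1qa (1.08, adjusted p = 0.00496) rose, 2 of 10 called, and the summed macrophage level went from 57.8 to 88.7 CPM at 10 µg/kg to 104 to 108 CPM. All 7 dendritic cell markers tested had positive estimates, 0 of them called. The 9 B cell markers went the other way, all with negative estimates (median log2 change -0.868) and 0 called. The part of these cells in the Cd74 values was not tested. All 14 interferon-gamma response genes tested also had negative estimates in this step (median log2 change -0.691), 0 of them called. Their unadjusted p was under 0.05 for 5, beside 21% of all genes. Of 16 class I presentation genes 11 were negative and 5 positive, with 0 called and 9 at an unadjusted p under 0.05. The part of the interferon response in the class II values was not tested. DESeq2 and limma-voom called 0 of 7 in both steps.

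Ratios within a library, which no scaling of libraries can alter, differed between groups for the chains of I-A. The ratio of H2-Ab1 to H2-Aa was 1.28, 1.19 and 1.28 in vehicle, 0.992, 1.02 and 0.939 at 3 µg/kg, 1.05, 1.01 and 1.02 at 10 µg/kg, with 1.20, 1.18 and 1.15 at 30 µg/kg. Every library of 3 and 10 µg/kg was below every library of vehicle and of 30 µg/kg, and only 30 µg/kg overlapped vehicle. Cd74 to H2-Aa showed the same separation, with 3.75 to 4.07 in vehicle, 2.84 to 3.12 at 3 µg/kg, 3.05 to 3.19 at 10 µg/kg and 3.54 to 4.02 at 30 µg/kg. Both ratios have H2-Aa as denominator, so they are not separate evidence. Cd74 to H2-Ab1 was the steadiest of the 5 ratios computed, from 3.01 to 3.35 over all 12 libraries. H2-DMb1 to H2-DMa ran from 0.746 to 0.840 in vehicle, 0.678 to 0.749 at 3 µg/kg, 0.586 to 0.726 at 10 µg/kg and 0.806 to 0.881 at 30 µg/kg. H2-Eb1 to H2-Aa ranged from 0.308 to 0.465, and its groups overlapped. These separations were picked out after the values had been seen and carry no test. The share of reads counted as ambiguous between genes split the libraries as H2-Ab1 to H2-Aa did. It was 0.807 to 1.11% in vehicle and 0.811 to 0.829% at 30 µg/kg. At 3 µg/kg it was 0.643 to 0.692%, and at 10 µg/kg 0.630 to 0.643%. The part of this difference in the ratios was not tested.

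**Figure D3:**
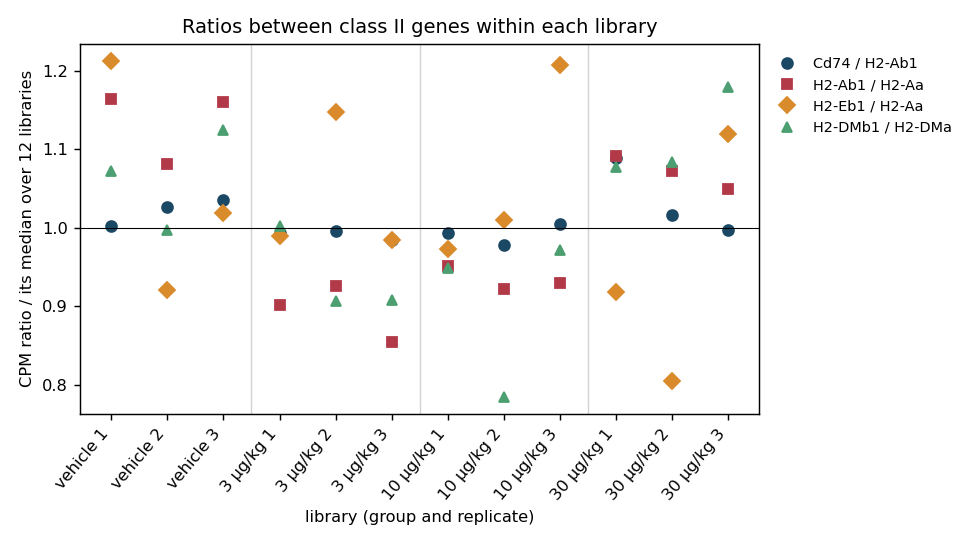
CPM ratios of 4 gene pairs in each library (x axis), each divided by its own median over 12 libraries (y axis, linear). H2-Ab1 to H2-Aa (squares) lies above its median of 1.10 in all vehicle and 30 µg/kg libraries and below it in all 3 and 10 µg/kg libraries, whereas Cd74 to H2-Ab1 (circles) stays near its median of 3.08.

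The genes that work with class II molecules were examined as a list of accessory genes, of which 12 were tested. At each dose 0 of 12 were called, beside 0.228, 0.613 and 3.97% of all genes in the order of dose. Before adjustment p was under 0.05 for 3, 5 and 6 of the 12, beside 11.4, 15.9 and 21.6% of all genes. Their median log2 change was -0.26, -0.27 and -0.15, against 0.0017, -0.0096 and -0.0161 over all genes. Its most abundant genes encode the protease cathepsin B (Ctsb, 346 ± 24.2 CPM in vehicle and 330 ± 5.36 at 30 µg/kg), the CD74-cleaving protease Sppl2a (168 ± 17.0 and 164 ± 14.9 CPM) and the ubiquitin ligase March8 (152 ± 11.1 and 118 ± 6.44 CPM). March8 had a log2 change of -0.36 at 30 µg/kg (SE 0.10, adjusted p = 0.0586). Ifi30, the lysosomal thiol reductase, which is named here after its values were seen, had an adjusted p of 0.0494 at 30 µg/kg with a log2 change of 0.32, below the fold required for a call.

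Of the regulators of class II genes, 15 were tested and 0 were called at each dose, beside 0.228, 0.613 and 3.97% of all genes. An unadjusted p under 0.05 was found for 1, 0 and 2 of the 15, beside 11.4, 15.9 and 21.6% of all genes. The median log2 change of the regulators was 0.05, 0.0027 and -0.05. Jak2, a kinase of the interferon-gamma receptor, had 284 ± 42.9 CPM in vehicle and 218 ± 22.8 at 30 µg/kg (log2 change -0.38, adjusted p = 0.255). The receptor chain gene Ifngr2 was at 216 ± 22.0 and 219 ± 13.1 CPM, and Irf1, a transcription factor induced by interferon-gamma, at 163 ± 43.7 and 149 ± 21.6 CPM. Ifng itself had 0 to 4 counts per library and was not tested.

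Interferon-gamma is the classical inducer of Ciita, and 14 genes of its response were tested. Estimates were positive for 13 of these at both lower doses and negative for 11 at the highest dose, with medians of 0.63, 0.38 and -0.26. Their summed level was 364, 324 and 252 CPM in vehicle, 306, 520 and 686 at 3 µg/kg, 325, 616 and 546 at 10 µg/kg, with 317, 210 and 330 at 30 µg/kg. At both lower doses replicate 1, the library with high Dbp, was within the vehicle range, and replicates 2 and 3, with low Dbp, were above it. Vehicle replicate 1, also low in Dbp, had the highest vehicle sum. The part of the clock in these values was not tested. Of the 14 genes 0, 2 and 1 were called in the order of dose, beside 0.228, 0.613 and 3.97% of all genes. Before adjustment 5, 2 and 4 of the 14 had a p under 0.05, beside 11.4, 15.9 and 21.6% of all genes. Ubd, a ubiquitin-like modifier, rose at 10 µg/kg (log2 change 1.30, SE 0.27, adjusted p = 0.0497) and at 30 µg/kg (1.09, SE 0.27, adjusted p = 0.0327). Ido1, the tryptophan-degrading enzyme, rose at 10 µg/kg (1.26, SE 0.25, adjusted p = 0.0394). The most abundant were Zbp1, a nucleic acid sensor, with 62.8 ± 26.7, 99.4 ± 45.1, 91.3 ± 37.2 and 50.9 ± 23.6 CPM in the order of dose, and the GTPase genes Igtp, with 54.7 ± 14.7, 105 ± 50.2, 102 ± 49.2 and 33.4 ± 14.1 CPM, and Irgm2, with 59.1 ± 13.0, 68.9 ± 23.2, 69.3 ± 24.9 and 34.8 ± 7.03 CPM. None of these 3 was called at any dose.

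Class I presentation served as a comparison, with 16 genes tested and 0, 0 and 1 called at the 3 doses, beside 0.228, 0.613 and 3.97% of all genes. Estimates were positive for 14, 14 and 9 of the 16 in the order of dose, with medians of 0.17, 0.18 and 0.03. The summed level was 5148 to 5621 CPM in vehicle, 5817 to 6201 at 3 µg/kg, 5529 to 6284 at 10 µg/kg and 5855 to 6094 at 30 µg/kg, so the lowest and the highest dose lay above vehicle. Pdia3, a chaperone of the loading complex named after its values were seen, had an adjusted p of 0.0469 at 10 µg/kg with a log2 change of 0.50, below the fold required for a call. The chaperone gene Calr rose at 30 µg/kg (log2 change 0.59, SE 0.11, adjusted p = 0.00568). B2m and H2-K1 are named after their values were seen. B2m, the class I light chain, had a log2 change of 0.34 there (adjusted p = 0.0907), and the class I heavy chain H2-K1 had -0.14 (adjusted p = 0.425).

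Some class II genes are typical of B cells, and these spread far more widely between libraries than the 7 genes above. H2-Ob, which encodes a chain of the DM inhibitor DO and is named here after its values were seen, had 0.395, 3.19 and 8.77 CPM in vehicle, 3.25, 3.33 and 0.294 at 3 µg/kg, 1.87, 2.32 and 0.0612 at 10 µg/kg, with 0.153, 0.178 and 1.04 at 30 µg/kg. The last library of 10 µg/kg and the lower 2 of 30 µg/kg held 1, 3 and 2 counts. Its values moved with a list of 9 B cell markers, whose summed level was 4.85, 36.5 and 95.7 CPM in vehicle, 24.8, 31.4 and 8.16 at 3 µg/kg, 23.5, 19.2 and 3.06 at 10 µg/kg, with 6.74, 5.60 and 8.65 at 30 µg/kg. The B cell sum thus varied 31.2-fold between libraries, whereas the sum of the 7 class II genes varied 1.40-fold, from 2265 to 3169 CPM. Vehicle replicate 3 had the highest B cell sum and the lowest sum of the class II genes. At 30 µg/kg the B cell sums, 5.60 to 8.65 CPM, lay within the vehicle range of 4.85 to 95.7 CPM. They were above vehicle replicate 1 and below vehicle replicates 2 and 3, so the differences at this dose rest on those 2 libraries. All 9 B cell markers had negative estimates at 30 µg/kg, with a median log2 change of -2.46. All 9 had an unadjusted p under 0.05, beside 21.6% of all genes, and 0 of 9 were called, beside 3.97%. Among them Ms4a1 (CD20) had a log2 change of -1.88 (adjusted p = 0.114) and Bank1, a B cell scaffold, -2.35 (adjusted p = 0.117). Pax5, the B lineage factor, had 0, 114 and 318 counts in vehicle and 2, 0 and 9 at 30 µg/kg. The part of B cells in the class II values was not tested.

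**Figure D4:**
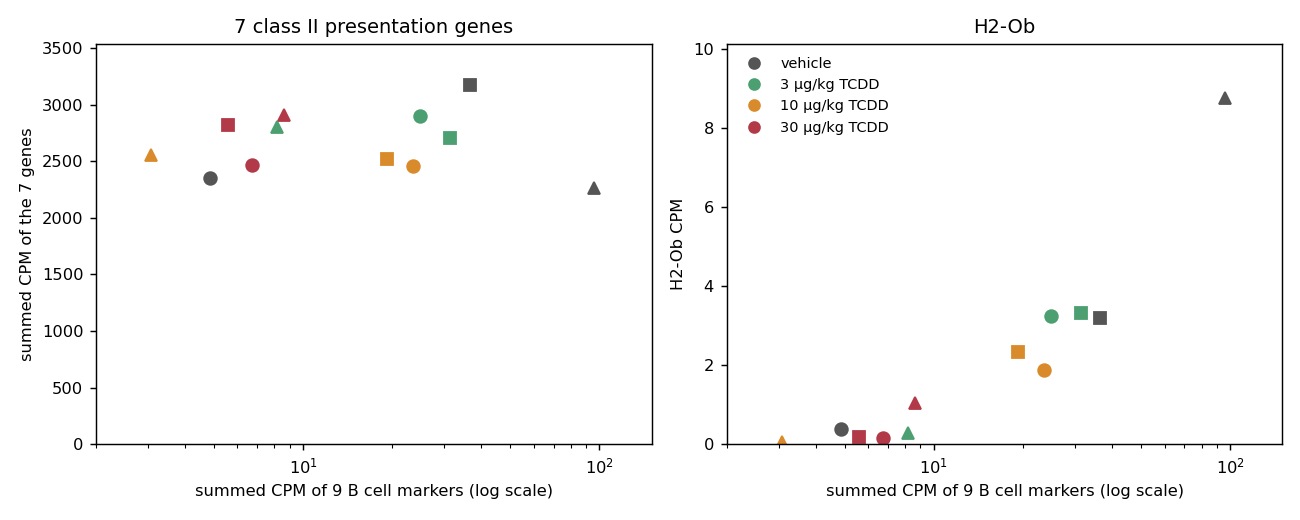
Summed CPM of the 7 class II genes (left) and CPM of H2-Ob (right) against the summed CPM of 9 B cell markers (x axes, log scale) in 12 libraries; colours give the dose and symbols the replicate (circle 1, square 2, triangle 3). The class II sum stays between 2265 and 3169 CPM across a 31.2-fold range of the B cell sum, and H2-Ob reaches 8.77 CPM in the vehicle library with the highest B cell sum.

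Markers of dendritic cells and macrophages, the other professional presenting cells, were measured as well. The dendritic cell list, with 7 of 10 markers tested, summed to 16.4 to 21.8 CPM in vehicle, 13.8 to 14.7 at 3 µg/kg, 9.74 to 14.8 at 10 µg/kg and 14.0 to 16.2 at 30 µg/kg, and 0 of 7 were called at 30 µg/kg. Its most abundant gene, the integrin Itgax, was at 13.2 ± 1.73 CPM in vehicle and 10.4 ± 2.08 at 30 µg/kg. The log2 change there was -0.47 for Flt3 and -0.83 for Zbtb46, a receptor and a transcription factor of dendritic cells. The macrophage list of 10 genes summed to 74.9 to 97.5 CPM in vehicle, 55.1 to 75.0 at 3 µg/kg, 57.8 to 88.7 at 10 µg/kg and 104 to 108 at 30 µg/kg, and 0 of 10 were called there. Csf1r, the macrophage growth factor receptor, had a log2 change of 0.50 at 30 µg/kg (adjusted p = 0.0825). The complement gene C1qa had 0.50 (adjusted p = 0.114) and the integrin Itgam 0.08 (adjusted p = 0.860). The part of these cells in the class II values was not tested. T cell and innate lymphoid markers were called against vehicle at 30 µg/kg, where 2 of 10 and 1 of 4 tested rose, beside 3.97% of all genes called. Of the T cell markers 7 had positive and 3 negative estimates, with a median of 0.19, and of the innate lymphoid markers 2 and 2, with a median of 0.17. The called markers were Cd3g, a chain of the T cell receptor complex (log2 change 0.71, adjusted p = 0.00478), the cytotoxic granule protease Gzmb (0.66, adjusted p = 0.0430) and the stem cell factor receptor Kit (1.12, adjusted p = 0.00211). Kit was also called at 10 µg/kg (0.95, adjusted p = 0.0260). It was the only innate lymphoid marker called. Il23r and Ncr1 of that list, at 0 to 5 counts per library, and Il22, at 0 counts in every library, were not tested. A rise of innate lymphoid cells cannot be read from Kit alone. The granule protease Gzma had 0.49 at 30 µg/kg (adjusted p = 0.0496), under the fold required for a call. Of the epithelial markers 0 of 9 were called there, with a median log2 change of 0.22 and a summed level of 10630 to 12130 CPM in vehicle and 12140 to 13570 CPM. Of the plasma cell markers 0 of 6 were called, with a median of -0.19.

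The genes whose log2 CPM ran most closely with the mean scaled log2 CPM of the 7 class II genes over the 12 libraries were Znhit2 (Pearson r = 0.919), Cog3 (0.870), Sh3yl1 (0.870), Aimp1 (0.816) and Zfp27 (0.814), followed by Gm12352, Kdm1a, Mospd1, Gm43042 and Bcorl1 at 0.775 to 0.757. They were ranked among 11189 genes, and the values are a description that carries no test. Among the listed genes, the immunoproteasome subunits Psmb8 (0.654) and Psmb9 (0.650), members of the class I list, stood highest.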

How the data were processed

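RNA from proximal ileal epithelial scrapings was sequenced in 12 libraries, 3 per group. The authors deposited raw read counts per Ensembl gene, 1 file per library. The submitters' processing notes name FastQC 0.11.3, Trimmomatic 0.33, TopHat2 2.1.0, SAMtools 1.2.0, HTSeq 0.6.1, DESeq and the build GRCm38. The strand setting and annotation release were not given in the sources used here. Entries for reads without a gene, 39.4 to 45.0% for no feature, stayed out of library sizes and tests. Symbols and lengths came from GENCODE M21, which matched 45229 identifiers.

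Counts were filtered with filterByExpr, scaled with TMM and fitted in edgeR 4.0.16 (R 4.3.3) by 1 quasi-likelihood model over 4 groups, with Benjamini-Hochberg adjustment over 15823 genes. CPM used these library sizes, and log2 CPM a prior count of 2. The self-test on simulated data preceded the fit. Alternatives used DESeq2 1.42.0, limma-voom 3.58.1, other scalings, filters and covariates, and left out libraries. The filter left all 7 genes in.

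Named besides the 7 genes were listed genes called at a dose (at most 5 per list), the 3 of highest mean count in each cell type, interferon and class II list, and the 10 genes most like them with a mean count of at least 50. Members and lists were chosen with earlier results of these data known. Replicates were numbered in accession order. The clock score is the mean scaled log2 CPM of Dbp-side minus Arntl-side genes. Replicate libraries differed beyond counting noise, with a chi-square per degree of freedom of 10.6 to 48.0. Intervals cover the spread between libraries, and the floor covers counting error only.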

Additional observations from a re-analysis of the deposited data

How the results depend on the processing

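No class II gene was called in any of 164 alternative counts, 0 in each, and the lowest adjusted p of these 7 genes was 0.0555, for the test of any difference without vehicle replicate 2. Over all genes, edgeR called 36, 97 and 628 at 3, 10 and 30 µg/kg against vehicle, where the alternatives called 6 to 162, 45 to 262 and 433 to 900. For the steps between doses, the 25 and 439 calls became 9 to 43 and 188 to 601. The trend called 520 genes, with 297 to 722 in the alternatives, and the test of any difference 1073, with 562 to 2143. Of 658 log2 changes recomputed, 615 kept their sign and 43 reversed; all belong to estimates that were not called. For Cd74 at the lowest dose the change was -0.0046 with median-of-ratios scaling and with DESeq2, -0.0242 with upper-quartile scaling, -0.0124 with TMM without genes over 1% of a library, -0.0090 with no filter and -0.0263 with at least 10 counts in every library. With the length and GC trend removed, the change at 30 µg/kg was -0.0008 for H2-Ab1, -0.0776 for H2-Eb1 and -0.0420 for Cd74, and the trend was -0.0533 for H2-Ab1 and -0.0892 for Cd74. The trend of H2-Eb1 was 0.0777 without the 3 µg/kg group, an alternative chosen after its Fabp6 and Slc10a2 counts were seen. Leaving out 1 library at a time gave, at 3 µg/kg, -0.0565 to 0.1975 for H2-Ab1, -0.0923 to 0.1577 for Cd74 and -0.0139 to 0.2953 for Ciita. At 10 µg/kg it gave -0.1821 to 0.0721 for H2-Ab1, -0.2171 to 0.0330 for Cd74 and -0.3891 to 0.0032 for Ciita. At 30 µg/kg it gave -0.0229 to 0.2311 for H2-Ab1, -0.1958 to 0.1366 for H2-Eb1, -0.0019 to 0.2481 for Cd74 and -0.0197 to 0.272 for H2-DMa. For the trend it gave -0.0733 to 0.1644 for H2-Aa, -0.0433 to 0.1534 for H2-Ab1, -0.1901 to 0.1036 for H2-Eb1, -0.0189 to 0.180 for Cd74 and -0.0039 to 0.3095 for H2-DMa. The causes were not tested. Vehicle has the widest SD of the 4 groups for H2-Aa, H2-Ab1, Cd74 and Ciita, which limits every comparison with it. No paired analysis was possible because the labels give the libraries no replicate numbers, and the numbers used here follow accession order.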
